A study of Mus musculus with 18 samples.

Results

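The 10 genes described here were *Arntl*, *Npas2*, *Cry1*, *Per1*, *Per2*, *Per3*, *Nr1d1*, *Nr1d2*, *Dbp* and *Tef*, the core of the circadian clock and the output factors closest to it, out of 23352 gene symbols listed for each liver. They were taken by name, and all 10 had an estimate marked as successful in every one of the 18 livers. The livers came from male mice aged 20 weeks, all fed a high-fat diet (HFD): 9 were wild type (WT) and 9 were homozygous for a whole-body knockout of *Gpr180* (*Gpr180*KO). It was made in C57BL/6J eggs by CRISPR/Cas9 with guides on both sides of 1 exon, and backcrossed before the homozygous line was bred. Loss of that exon was predicted to shift the reading frame, and the study still found a truncated *Gpr180* mRNA at a reduced level. Poly(A) RNA was sequenced, and levels are FPKM (fragments per kilobase of transcript, scaled to the mapped reads), which correct for transcript length, so that levels of different genes can be set side by side. The livers' names come in 2 styles: style 1 holds 4 mice of each genotype (W317HFD to W320HFD and KO319HFD to KO322HFD) and style 2 holds 5 of each (WThfd131, WThfd133, WThfd134, WThfd156 and WThfd157, and KOhfd51, KOhfd52, KOhfd53, KOhfd54 and KOhfd56). What the styles stand for is not stated, and a number shared by a WT and a KO mouse does not pair them. The mice were kept in alternating light and dark, but the time of day at which each liver was taken is not given in the labels or the methods, so a difference in that time cannot be told apart from other differences between livers.

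The mammalian clock is a loop of transcription and repression that runs in almost every cell. BMAL1 (the product of *Arntl*) pairs with CLOCK or with its relative NPAS2 and switches on genes that carry an E-box, among them the *Per* and *Cry* genes, *Nr1d1*, *Nr1d2*, *Dbp* and *Tef*. PER and CRY proteins gather and silence BMAL1, while REV-ERBα and REV-ERBβ (from *Nr1d1* and *Nr1d2*) bind the RRE and repress *Arntl*, *Npas2* and *Cry1*. DBP and TEF, factors of the PAR bZIP family, act on D-boxes, as in *Per3*, and pass the rhythm on to genes of metabolism and detoxification. In mouse liver *Arntl*, *Npas2* and *Cry1* are highest around the end of the night. The other 7 members are highest during the day and into the early night. The balance of the opposite groups changes over the cycle, but it does not by itself give the time at which a liver was taken.

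The promoter table of RefSeq (assembly GRCm38.p6) holds windows for 9 of the 10 members, from 250 bases before to 50 bases after each start. They are shown because the members move in opposite groups, and the elements that join them into the loop can be read in some of them. The E-box was searched as CACGTG and the D-box as TTATGTAA or TTACGTAA, on both strands, and the RRE by its consensus. The D-box copies begin 205 and 158 bases before the *Per3* start, the E-boxes begin 60 bases before the *Cry1* start, 166 before 1 of the 2 *Per1* starts and 127 and 138 before the 2 *Tef* starts, and the RRE begins 26 bases into the transcript from 1 of the *Arntl* starts. The motif is in capitals, and each sequence reads in the direction of its gene.
*Per3*, D-boxes, chr4:151044806-151044880, minus strand: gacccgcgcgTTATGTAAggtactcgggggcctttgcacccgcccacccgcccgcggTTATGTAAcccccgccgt
*Arntl*, RRE, chr7:113207528-113207556, plus strand: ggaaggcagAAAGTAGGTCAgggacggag
*Cry1*, E-box, chr10:85185099-85185124, minus strand: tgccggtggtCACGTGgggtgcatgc
*Per1*, E-box, chr11:69098773-69098798, plus strand: cacccaagtcCACGTGcagggatgtg
*Tef*, E-box of one start, chr15:81802536-81802561, plus strand: gctgtggctcCACGTGctgcagctgg
*Tef*, E-box of the other start, chr15:81811266-81811291, plus strand: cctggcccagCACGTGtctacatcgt

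The D-box was found in 347 of all 32851 windows (1.06%), the RRE in 126 (0.384%) and the E-box in 2349 (7.15%). None of the 3 motifs was found in the windows of *Npas2*, *Nr1d1*, *Nr1d2* and *Dbp*, nor in that of the other start of *Per1* or of *Arntl*, which says only that these letters are not in these bases.

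In their mean FPKM the members spanned a wide range, in the same order in both genotypes. *Nr1d1* was the most abundant, at 32.9 ± 8.2 (SD, n = 9) in WT and 31.1 ± 7.2 (n = 9) in *Gpr180*KO livers. *Tef* (20.5 ± 7.1 and 17.4 ± 3.8) and *Nr1d2* (18.9 ± 4.2 and 16.5 ± 4.4) came next and did not differ from each other beyond their spread. *Dbp* averaged 12.4 ± 10.1 and 7.64 ± 4.51, *Arntl* 6.01 ± 3.28 and 6.01 ± 2.09, and *Cry1* 3.47 ± 1.73 and 3.93 ± 1.47. The *Per* genes lay low, at 3.33 ± 0.97 and 2.19 ± 0.74 for *Per2*, 2.37 ± 1.31 and 1.59 ± 1.07 for *Per1*, and 2.09 ± 1.47 and 0.903 ± 0.441 for *Per3*. *Npas2* averaged 1.01 ± 0.77 and 0.830 ± 0.404. The SDs of *Dbp*, *Per3* and *Npas2* in WT livers were close to their means. From *Dbp* down, the means of neighbours in the order lay closer together than the larger of their SDs, except for *Cry1* and *Per2* in *Gpr180*KO livers, whose means were 1.75 apart beside SDs of 1.47 and 0.74.

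**Figure D1:**
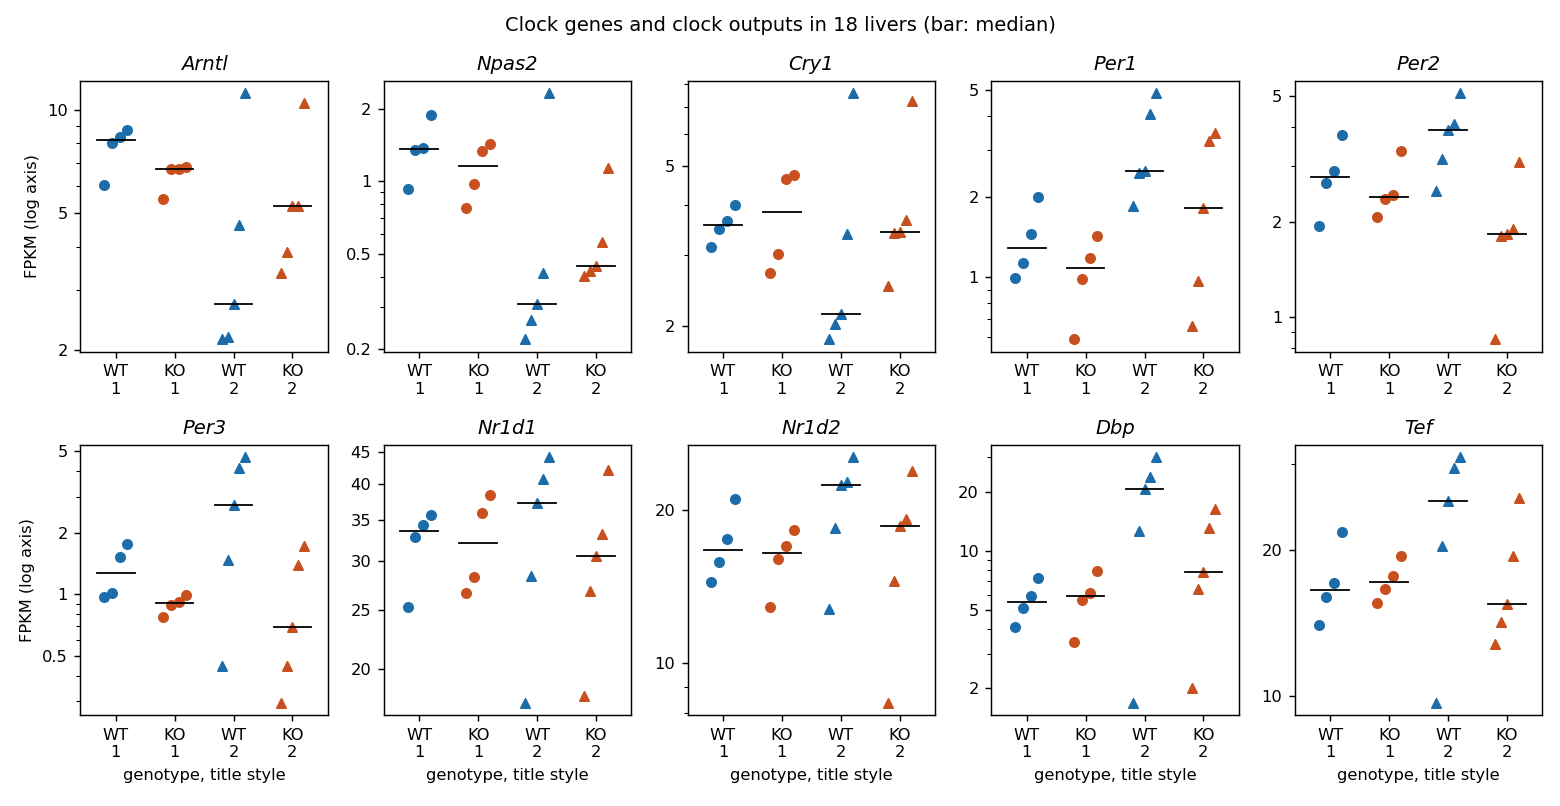
FPKM of the 10 members in 18 livers, on log axes; each point is 1 liver (circles title style 1, triangles title style 2, blue WT, orange *Gpr180*KO), and the bar is the group's median. In style 2 *Dbp* runs from 1.69 to 30.1 FPKM, and in style 1 from 3.43 to 7.89.

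Most members varied widely between individual livers, and mostly in opposite directions for the opposite groups. *Dbp*, the D-box activator, stood in the 4 style 1 WT livers at 5.13, 5.89, 7.28 and 4.11 FPKM and in the 4 style 1 *Gpr180*KO livers at 7.89, 3.43, 5.64 and 6.11. In style 2 it was 12.7, 23.7, 1.69, 30.1 and 20.7 in WThfd131, WThfd133, WThfd134, WThfd156 and WThfd157, and 13.0, 7.85, 2.00, 6.39 and 16.4 in KOhfd51, KOhfd52, KOhfd53, KOhfd54 and KOhfd56. The style 1 livers thus lay together in the lower middle, and the style 2 livers lay on both sides of them, with WThfd134 and KOhfd53 at the bottom of all 18 and WThfd133, WThfd156 and WThfd157 at the top.

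*Arntl*, the activating arm of the loop, was the mirror image. It stood at 8.37, 8.73, 6.06 and 8.01 FPKM in the style 1 WT livers and at 6.72, 6.83, 6.76 and 5.51 in the style 1 *Gpr180*KO livers. In style 2 it was 4.64, 2.73, 11.2, 2.15 and 2.19 in WThfd131, WThfd133, WThfd134, WThfd156 and WThfd157, and 3.35, 5.27, 10.5, 5.27 and 3.86 in KOhfd51, KOhfd52, KOhfd53, KOhfd54 and KOhfd56. The livers with the highest *Arntl* were WThfd134 and KOhfd53, 1 of each genotype, and the lowest were WThfd156, WThfd157 and WThfd133, so both genotypes overlapped over most of the range.

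Across the 18 livers *Dbp* fell as *Arntl* rose, with a Pearson r of -0.939 and a Spearman rho of -0.936 on the log2(FPKM + 0.1) scale; each had a permutation p of 1e-05, the smallest that the 100000 permutations can give, and the Benjamini-Hochberg adjusted p over the 45 pairs of members was 5.62e-05 for r and 0.00015 for rho. The r was -0.921 without the livers farthest from the median of *Arntl*, WThfd156 and WThfd157, and -0.942 after each liver was centred on its genotype and title style (adjusted permutation p 0.00154). It was weaker within style 1, at -0.341 over 8 livers. There the SD on this scale was 0.39 for *Dbp* and 0.23 for *Arntl*, against 1.40 and 0.82 in style 2. The part of that smaller spread in the weaker r was not tested. Members of the same phase rose together: *Arntl* and *Npas2* did so with an r of 0.930 (rho 0.955), and *Arntl* and *Cry1* with an r of 0.865 (rho 0.845), with permutation p of 1e-05 for both r.

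**Figure D2:**
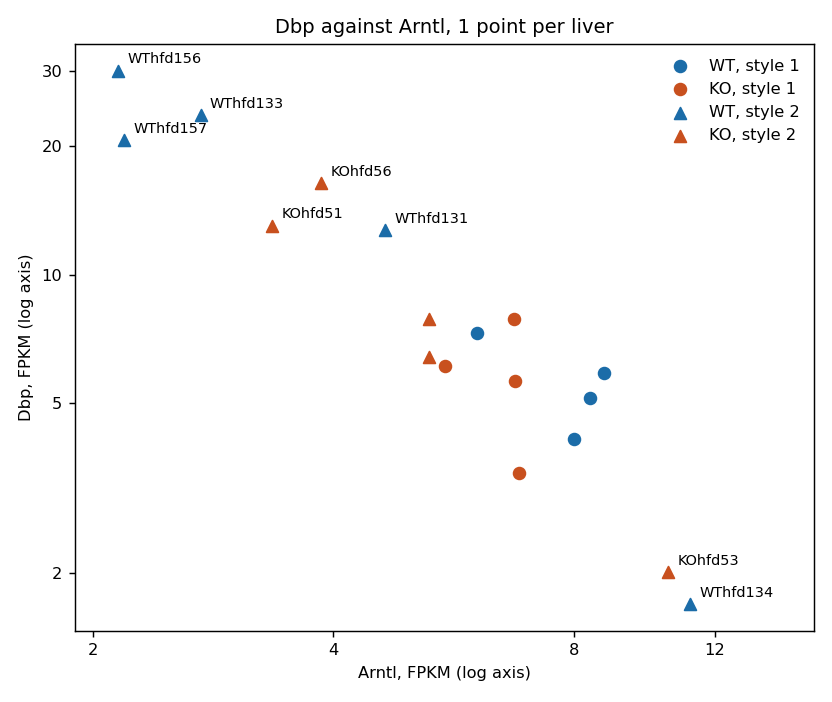
FPKM of *Dbp* against *Arntl* on log axes, 1 point per liver, with symbols for genotype and title style. The points fall along 1 line from WThfd156 (30.1 FPKM of *Dbp*, 2.15 of *Arntl*) to WThfd134 (1.69 and 11.2), and the style 1 livers sit in its lower middle.

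Of the 21 pairs that join members of opposite phase, 20 had a negative r, with a median of -0.608 and a range from -0.939 to 0.0287, and 12 passed the adjusted permutation test pooled, as did 12 as deviations from the genotype and title style means. Of the 24 pairs within a phase group, 23 had a positive r, with a median of 0.722, and 14 passed in each way. The pairs share their 18 libraries, so they are not independent of one another. Within style 1 the median r of the opposite pairs was -0.281 (n = 8 livers), within style 2 -0.791 (n = 10), among WT livers -0.902 (n = 9) and among *Gpr180*KO livers -0.308 (n = 9). These medians were not tested against each other. Those of style 2 and of *Gpr180*KO livers include KOhfd51, which stood apart as described next, and neither was taken without it.

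The liver KOhfd51 stood apart in a way that touches these values. The median deviation of its longest 20% of transcripts minus that of its shortest 20% was -1.51 log2 units, against -0.08 to 0.13 in the other *Gpr180*KO livers. In it *Per2* was 0.851 FPKM, against 1.80 to 3.34 in the other *Gpr180*KO livers, and *Nr1d2* was 8.36, the lowest of all 18. Without KOhfd51 all 21 opposite pairs had a negative r, with a median of -0.789. The part of transcript length in these values was not tested.

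To set the livers side by side, the mean log2(FPKM + 0.1) of *Arntl*, *Npas2* and *Cry1* minus that of the other 7 members was taken for each liver, as a description with no test. The balance was lowest in WThfd157 (-3.38), WThfd156 (-3.36), WThfd133 (-2.94), KOhfd56 (-2.35) and WThfd131 (-2.08). It was highest in WThfd134 (0.49) and KOhfd53 (0.29), the only livers above 0. The 8 style 1 livers lay between -1.36 and -0.36, with means of -0.81 ± 0.41 in WT (SD, n = 4) and -0.82 ± 0.43 in *Gpr180*KO (n = 4). In style 2 the means were -2.25 ± 1.62 in WT (n = 5) and -1.23 ± 0.95 in *Gpr180*KO (n = 5), and the genotypes overlapped. Over all livers the balance was -1.61 ± 1.40 in WT and -1.05 ± 0.76 in *Gpr180*KO, a difference of 0.56 that lay within the spread of either group.

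**Figure D3:**
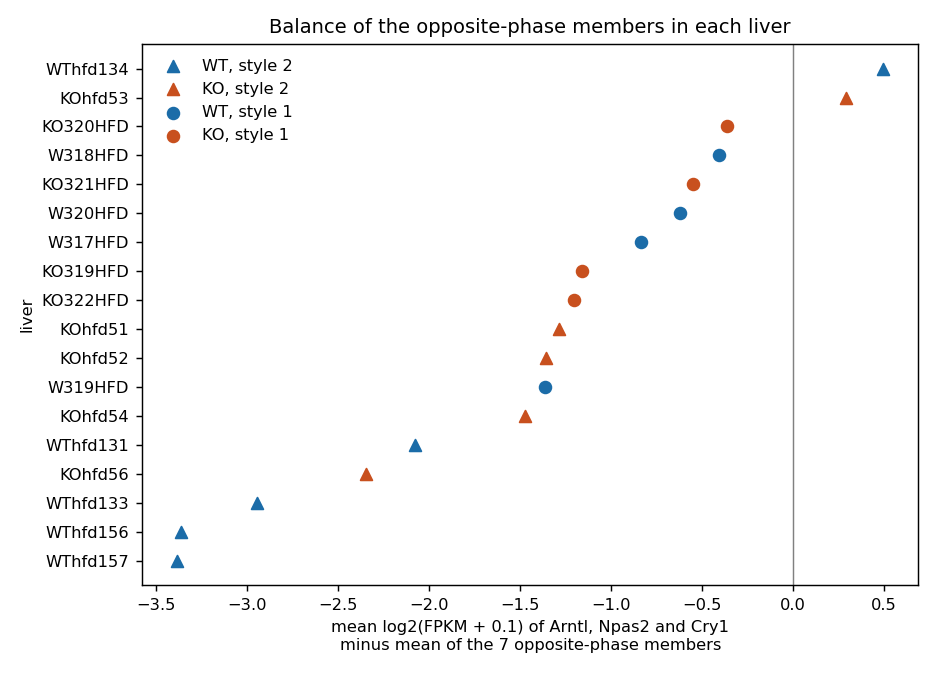
Balance of the opposite-phase members in each of the 18 livers, ordered by value; the axis is the mean log2(FPKM + 0.1) of *Arntl*, *Npas2* and *Cry1* minus the mean of the other 7 members. The style 1 livers (circles) take up the narrow range from -1.36 to -0.36, and the style 2 livers (triangles) lie from -3.38 to 0.49.

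The members were more even in style 1 than in style 2. The SD of log2(FPKM + 0.1) over livers was 0.39 in style 1 and 1.40 in style 2 for *Dbp*, 0.37 and 1.27 for *Per3*, and 0.23 and 0.82 for *Arntl*. The median over all 10835 genes tested was also higher in style 2, at 0.32 against 0.15, and the median of the ratios taken gene by gene was 2.02. *Dbp* (ratio 3.59), *Arntl* (3.58), *Per3* (3.42), *Tef* (2.84), *Cry1* (2.43), *Nr1d2* (2.31) and *Per2* (2.29) were above that ratio, *Nr1d1* (2.11) was close to it and *Per1* (1.82) was below it. The style 2 SDs, those of all genes included, hold KOhfd51, the liver with the lowest *Nr1d2* and *Per2* of all. These ratios were not taken without it. Over all livers the SD of *Dbp* was larger than that of 98.2% of genes, that of *Per3* larger than 97.5% and that of *Per1* larger than 96.5%. For *Arntl* the share was 94.6%, for *Per2* 90.0% and for *Cry1* 88.5%. *Tef* (79.0%), *Nr1d2* (72.2%) and *Nr1d1* (70.0%) stood out less.

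**Figure D4:**
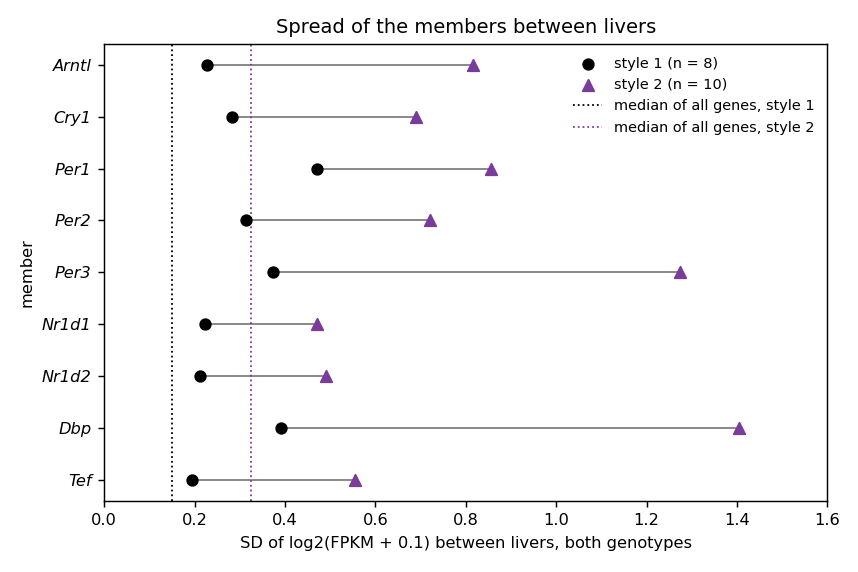
SD of log2(FPKM + 0.1) between livers of both genotypes for the 9 members tested, in title style 1 (circles, 8 livers) and style 2 (triangles, 10 livers), with dotted lines at the median SD of all 10835 genes. *Dbp* has the widest gap, from 0.39 to 1.40, beside 0.15 and 0.32 for the median gene.

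*Per1*, a repressor whose gene also answers directly to glucocorticoids, followed the other members weakly over the 18 livers. Its highest values were 4.86 FPKM in WThfd131 and 4.08 in WThfd134, livers on different sides of the style 1 livers in *Dbp*, and its lowest was 0.587 in KO321HFD. Its r with *Arntl* was -0.139 (rho -0.207), with an adjusted permutation p of 0.636 for r, and its r with *Dbp* was 0.115 (rho 0.191; adjusted permutation p of 0.665 for r). The r between *Per1* and *Cry1*, 0.0287, was the 1 positive value among the 21 opposite pairs. Without WThfd134, KOhfd53 and KOhfd51, and with no test, the r of *Per1* was -0.504 with *Arntl*, -0.687 with *Npas2*, -0.421 with *Cry1* and 0.535 with *Dbp*.

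The 4 other genes of the glucocorticoid list, named after their values were seen, were *Tsc22d3*, *Sgk1*, *Tat* and *Fkbp5*. *Tsc22d3* was 49.3 FPKM in WThfd134 and 51.8 in KOhfd53, above the 13.1 to 39.0 of the other 16 livers, and *Sgk1* was 17.3 and 20.3, above the 3.99 to 10.8 of the others. *Tat*, which makes the enzyme that starts tyrosine breakdown, was 930 in WThfd134 and 1003 in KOhfd53, but it was higher still in KOhfd54 (1041) and KOhfd56 (1232), which are not at that end of the *Arntl* range. *Fkbp5* was highest in WThfd131, at 10.1, the liver with the most *Per1*. The part of glucocorticoids in the members' values was not tested.

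For the effect of the genotype, levels were compared over all 9 WT and 9 *Gpr180*KO livers with limma on log2(FPKM + 0.1). The fit held the 10835 genes whose FPKM averaged 1 or more, p-values were adjusted over all of them by Benjamini-Hochberg, and genes under 0.05 passed. *Gpr180* itself fell by 2.00 ± 0.18 on the log2 scale (SE; adjusted p 4.74e-06), from 4.46 to 9.24 FPKM in WT livers to 0.876 to 1.99 in *Gpr180*KO livers, with no overlap. None of the 9 members tested passed, where 4.73% of all genes did (513 genes, 464 of them lower in *Gpr180*KO). That share ran from 1.22% without WThfd133 to 8.51% without WThfd157 when 1 liver was left out, and it was 10.6% with title style as a block. By the unadjusted p under 0.05, 2 members passed, *Per2* and *Per3*, where 22.2% of all genes did. The members' median difference was -0.21 and that of all genes -0.13; 7 of 9 members were lower, as were 76.9% of all genes. Under median-of-ratios scaling, which removes most of the common shift, 0 members and 293 genes passed, 147 lower and 146 higher.

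The *Per* genes, the repressors of the loop, had the largest differences among the members, and none passed the adjusted test. *Per3* was 0.445 to 4.70 FPKM in WT livers (median 1.53) and 0.295 to 1.72 in *Gpr180*KO livers (median 0.892), a log2 difference of -0.96 ± 0.37 (SE; unadjusted p 0.0178, adjusted p 0.135). *Per2* was 1.95 to 5.09 (median 3.15) and 0.851 to 3.34 (median 2.07), a difference of -0.61 ± 0.21 (unadjusted p 0.00898, adjusted p 0.095). *Per1* was 0.995 to 4.86 (median 1.99) and 0.587 to 3.47 (median 1.18), a difference of -0.60 ± 0.34 (adjusted p 0.309). The genotypes overlapped for all 3 genes. Without KOhfd51 the *Per2* difference was -0.47. Within style 1 the difference was -0.12 ± 0.20 for *Per2*, -0.48 ± 0.19 for *Per3* and -0.39 ± 0.28 for *Per1*. Within style 2 it was -1.01 ± 0.30, -1.35 ± 0.63 and -0.77 ± 0.45. The mean balance of the members in style 1 was -0.81 in WT and -0.82 in *Gpr180*KO livers (n = 4 each). In style 2 it was -2.25 in WT and -1.23 in *Gpr180*KO livers (n = 5 each). The *Per* genes are part of that balance, so it is not independent of their differences.

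The other members lay closer to 0. *Arntl* differed by 0.15 ± 0.31 (adjusted p 0.783) and *Cry1* by 0.23 ± 0.24 (adjusted p 0.579), both higher in *Gpr180*KO on average. *Dbp* differed by -0.42 ± 0.49 (adjusted p 0.614), *Nr1d2* by -0.21 ± 0.17, *Tef* by -0.18 ± 0.19 and *Nr1d1* by -0.07 ± 0.17, and the sign of *Nr1d1* turned under median-of-ratios scaling (0.08) and without KOhfd53 (0.02). *Npas2*, whose mean over the 18 livers was under 1 FPKM, was taken from a fit with the minimum at 0.1 FPKM, in which 5.97% of 14016 genes passed; it differed by -0.01 ± 0.40 (adjusted p 0.988), with a sign that turned with the scaling. The SEs of the 9 members tested ran from 0.17 to 0.49 on the log2 scale. *Per2* at -0.61 ± 0.21 and *Per3* at -0.96 ± 0.37 did not pass, so differences well above their SE could go undetected.

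No member's genotype difference was shown to depend on the title style. In the interaction term 0% of the 10835 genes passed, with limma, and 833 (7.69%) had an unadjusted p under 0.05, *Per2* among them: its interaction term, the genotype difference in style 2 minus that in style 1, was -0.89 ± 0.39 (unadjusted p 0.0367, adjusted p 0.643). The other members' interaction terms ran from -0.87 ± 0.75 for *Per3* to 0.74 ± 0.55 for *Arntl*.

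Between the title styles, with genotype in the model, 1 of the 9 members passed, where 22.9% of all genes did (2069 genes lower and 410 higher in style 2; under median-of-ratios scaling 860 and 931). *Per1* was 0.587 to 1.99 FPKM in style 1 (median 1.16) and 0.661 to 4.86 in style 2 (median 2.47), higher in style 2 by 0.89 ± 0.29 on the log2 scale (adjusted p 0.0326). That call was lost without any 1 of W317HFD, W318HFD, WThfd131, WThfd134, KO321HFD, KOhfd54 and KOhfd56, with differences from 0.78 to 0.84 and adjusted p from 0.0539 to 0.0718. With no FPKM minimum the *Per1* call was also lost (0.89, adjusted p 0.0528). *Npas2*, in the fit with the lower minimum, fell by 1.11 ± 0.32 (adjusted p 0.0205, where 19.3% of genes passed), from 0.770 to 1.88 FPKM in style 1 (median 1.34) to 0.220 to 2.32 in style 2 (median 0.418). *Arntl* (-0.67 ± 0.28, adjusted p 0.0872) and *Dbp* (0.80 ± 0.47, adjusted p 0.227) did not pass.

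Some cell type markers differed between the title styles, the endothelial ones most clearly. Of all genes 19.1% passed as lower and 3.78% as higher in style 2. Under median-of-ratios scaling 16.5% of all genes passed in either direction. The 5 endothelial markers summed to 104 to 118 FPKM in style 1 and 65.8 to 87.9 in style 2, with no overlap, and 4 of them passed as lower in style 2, by 0.78 ± 0.10 on the log2 scale for *Stab2* and 0.48 ± 0.10 for *Pecam1*, also under median-of-ratios scaling. The 6 macrophage markers summed to 144 to 241 and 110 to 271 and the 6 stellate cell and fibroblast markers to 119 to 253 and 77.3 to 270; 3 of 6 passed as lower in each list, and 1 of 6 in each under that scaling. The 6 hepatocyte markers summed to 17498 to 21972 and 16190 to 32371, with *Ttr* lower and *Serpina1a* higher in style 2, and the cholangiocyte marker *Sox9* was higher (0.51 ± 0.16, adjusted p 0.0280). In these bulk samples fewer cells of a type and less RNA per cell cannot be told apart, and the part of cell makeup in the members' values was not tested.

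Some of the style differences were larger without the livers at the *Arntl*-high end. Without WThfd134 *Arntl* passed at -0.84 and *Dbp* at 1.12, and without KOhfd53 *Arntl* passed at -0.81. Without both, *Arntl* (-0.995) and *Dbp* (1.39) passed and *Per1* did not (0.82, adjusted p 0.0746), where 20.7% of all genes passed. Without KOhfd51, the liver that stood apart by transcript length, *Per1* alone of the 9 passed, at 1.05, while the share of all genes went to 41.9%. Without all 3 livers 40.6% of all genes passed, and 6 members did: *Arntl* at -0.97, and *Dbp* at 1.37, *Per1* at 1.02, *Per3* at 0.80, *Tef* at 0.42 and *Nr1d2* at 0.37. WThfd134 and KOhfd53 were left out for their member values, so these figures describe the livers that stayed in and are not an independent test.

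**Figure D5:**
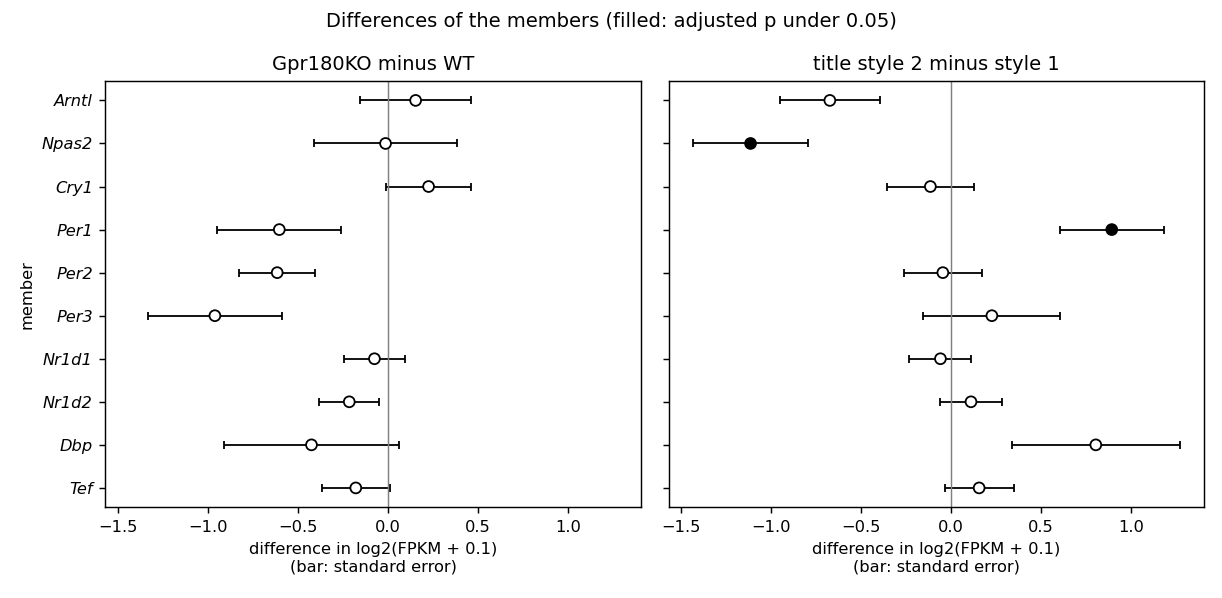
Differences of the 10 members in log2(FPKM + 0.1) with their standard errors, *Gpr180*KO minus WT on the left and title style 2 minus style 1 on the right; filled points have an adjusted p under 0.05. No member is filled on the left, where the 3 *Per* genes lie lowest (-0.60, -0.61 and -0.96), and *Per1* (0.89) and *Npas2* (-1.11) are filled on the right.

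Around the members, 13 other clock genes were taken as a list (the partner *Clock*, *Cry2*, the activators of the RRE, the repressors *Bhlhe40*, *Bhlhe41*, *Nfil3* and *Ciart*, the output factor *Hlf*, and the kinases and ligase subunits that act on PER and CRY). Of the 11 tested, 1 was lower in *Gpr180*KO and 0 were higher, where 4.28% of all genes were lower; the list's median was -0.12, beside -0.13 for all genes. The gene that fell was *Bhlhe40*, a repressor that competes for the E-box. It was 20.2 to 39.3 FPKM in WT livers (median 32.2) and 18.8 to 31.0 in *Gpr180*KO livers (median 21.5), a difference of -0.49 ± 0.12 (adjusted p 0.0302). It was -0.62 ± 0.09 within style 1 and -0.38 ± 0.20 within style 2, and the call was lost under median-of-ratios scaling (-0.34, adjusted p 0.154) and without any 1 of W317HFD, W318HFD, WThfd133, WThfd156, KOhfd53 and KOhfd54 (-0.49 to -0.45, adjusted p 0.0511 to 0.0676).

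*Ciart*, a repressor of CLOCK and BMAL1, was under 1 FPKM on average, and in the fit with the lower minimum its log2 difference was -1.16 ± 0.33 (adjusted p 0.0452). It was 0.274 to 2.13 FPKM in WT livers (median 0.500) and 0.129 to 0.591 in *Gpr180*KO livers (median 0.244), with overlap. The difference was -0.65 ± 0.33 within style 1 and -1.56 ± 0.39 within style 2. The call was lost under median-of-ratios scaling (-1.03, adjusted p 0.0996) and in 12 of the 18 fits that left out 1 liver (-1.24 to -0.97, adjusted p 0.0519 to 0.0968): those without W317HFD, W318HFD, WThfd131, WThfd133, WThfd156, WThfd157, KO320HFD, KO321HFD, KO322HFD, KOhfd52, KOhfd53 and KOhfd54. Its promoter window carries 3 E-boxes, at 116, 58 and 44 bases before the start, and is shown because its genotype difference was the largest in size among the members and the other clock genes.
*Ciart*, E-boxes, chr3:95882257-95882354, minus strand: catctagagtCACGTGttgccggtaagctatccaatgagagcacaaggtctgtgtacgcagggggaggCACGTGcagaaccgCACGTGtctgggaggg

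Between the styles, 3 of the 11 other clock genes tested passed, near the share of all genes. All 3 were lower in style 2, where 19.1% of all genes were lower: *Csnk1d*, a kinase of PER proteins (-0.38 ± 0.06, adjusted p 0.000575), *Btrc*, a ligase subunit that marks PER for breakdown (-0.27 ± 0.08, adjusted p 0.0215), and *Cry2* (-0.44 ± 0.14, adjusted p 0.0313). Under median-of-ratios scaling *Btrc* (-0.15, adjusted p 0.182) and *Cry2* (-0.33, adjusted p 0.126) did not pass. The *Cry2* call was also lost without any 1 of W317HFD, W318HFD, W319HFD, KO319HFD, KO321HFD and KOhfd54 (-0.44 to -0.38, adjusted p 0.0509 to 0.0669).

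A list of 13 genes with a daily rhythm in liver, chosen with earlier results of these data known, was read in the same fits. For the genotype 3 of the 12 tested passed, 2 lower and 1 higher, where 4.28% of all genes were lower and 0.452% higher. The list's median was -0.55, beside -0.13 for all genes. Given how the list was chosen, these figures are not an independent test of it. *Wee1*, an E-box gene and a brake on mitosis, was 1.21 to 5.33 FPKM in WT livers (median 2.54) and 0.437 to 1.61 in *Gpr180*KO livers (median 1.25), a log2 difference of -1.16 ± 0.25 (adjusted p 0.0163). It was -0.89 ± 0.16 within style 1 and -1.38 ± 0.41 within style 2. *Lpin1*, a phosphatidate phosphatase, differed by -0.72 ± 0.20 (adjusted p 0.0442), a call lost under median-of-ratios scaling (-0.57, adjusted p 0.111) and in 13 of the 18 fits that left out 1 liver. Those were the fits without W317HFD, W318HFD, W319HFD, W320HFD, WThfd131, WThfd133, WThfd156, KO320HFD, KO322HFD, KOhfd51, KOhfd52, KOhfd53 and KOhfd56 (-0.74 to -0.61, adjusted p 0.0529 to 0.0935). *Elovl3*, an enzyme that lengthens fatty acids, was higher by 0.96 ± 0.22 (adjusted p 0.0219; without W317HFD 0.92, adjusted p 0.0501).

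Between the styles 5 of the 12 passed, where 3.78% of all genes were higher in style 2 and 19.1% lower: *Upp2* (1.87 ± 0.25), *Por* (0.53 ± 0.14) and *Nampt* (0.38 ± 0.12) were higher in style 2, and *Cyp2a5* (-0.86 ± 0.20) and *Insig2* (-0.71 ± 0.11) were lower. The *Nampt* call (adjusted p 0.0325) was lost without any 1 of W318HFD, W319HFD, W320HFD, WThfd131, WThfd133, WThfd156, KO319HFD, KOhfd54 and KOhfd56 (0.34 to 0.37, adjusted p 0.0524 to 0.0690).

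Genes that answer to systemic cues were read beside the members. For the genotype, 0 of 5 glucocorticoid, 0 of 6 heat shock and 0 of 8 fasting and feeding genes passed, where 4.73% of all genes did. By the unadjusted p under 0.05 they numbered 1, 1 and 4, where 22.2% of all genes passed. Of the 2 cold inducible genes *Rbm3* was lower, with a difference of -0.75 ± 0.16 (adjusted p 0.0163, and -0.60 with adjusted p 0.0651 under median-of-ratios scaling). Under that scaling 2 fasting and feeding genes passed in its place, both higher in *Gpr180*KO and named after their values were seen: *Pck1* (0.86, adjusted p 0.0471) and *Srebf1* (0.47, adjusted p 0.0459). Between the styles, *Per1* was the 1 glucocorticoid gene that passed, as higher in style 2, where 3.78% of all genes were higher. No heat shock or cold inducible gene passed. Of the 8 genes of fasting and feeding 2 were lower in style 2, where 19.1% of all genes were, namely *Pdk4* (-1.33 ± 0.20) and *Fgf21* (-0.74 ± 0.23). *Fgf21* (-0.62, adjusted p 0.0657) did not pass under median-of-ratios scaling, under which *Ppargc1a* (0.60, adjusted p 0.0394) and *Rbm3* (0.48, adjusted p 0.0238) passed as higher in style 2. The *Fgf21* call was also lost without any 1 of KO319HFD, KO321HFD, KO322HFD and KOhfd54 (-0.70 to -0.64, adjusted p 0.0517 to 0.0623).

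The livers carried strong hepatocyte signal, with the 6 markers summing to 16190 to 21403 FPKM in WT and 19240 to 32371 in *Gpr180*KO. The 6 stellate cell and fibroblast markers summed to 139 to 270 in WT and 77.3 to 136 in *Gpr180*KO, and 3 of them passed as lower in *Gpr180*KO, *Col1a1*, *Col3a1* and *Dcn*; the 6 macrophage markers summed to 110 to 271 and 127 to 190, and the 5 endothelial markers to 72.6 to 118 and 65.8 to 107. The 4 cholangiocyte markers summed to 2.72 to 6.02 and 1.43 to 3.43 and the 4 lymphocyte markers to 0.796 to 3.07 and 0.636 to 1.77, with *Cd3e* listed at 0 in some livers. The macrophage marker *Cd68* (-0.69 ± 0.16, adjusted p 0.0257) and the cholangiocyte marker *Sox9* (-0.70 ± 0.20, adjusted p 0.0454) also passed as lower in *Gpr180*KO. *Sox9* was not called under median-of-ratios scaling. Of all genes 4.28% passed as lower in *Gpr180*KO. The summed FPKM of all genes ran from 554796 to 718746, with KOhfd51 the highest. From the steps of low values, the relative depth ran from 60.8% to 100% of that of W317HFD in WT and from 44.3% to 93.5% in *Gpr180*KO livers, and the limits listed with each member's FPKM lay 5.3% to 44.6% from it. Those of *Ciart* lay 34.4% to 99.8% from its FPKM.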

How the data were processed

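Poly(A) libraries of 18 mouse livers (9 WT, 9 *Gpr180*KO, all on high-fat diet) were sequenced as single reads. The authors aligned them to mm10 (GRCm38) with TopHat and deposited 1 table of FPKM values per liver, with lower and upper limits whose level is not stated; the tool that made the FPKM and the gene annotation are not given in the sources used here. FPKM of rows sharing a symbol were summed, and 24 symbols with an estimate marked as failed or too deep in any liver were left out (190 values). These tables hold no read counts, so depth is given only relative to 1 liver. Differences were tested with limma 3.58.1 in R 4.3.3 (lmFit, eBayes with trend) on log2(FPKM + 0.1), a scale that understates changes of low genes, for the 10835 genes whose FPKM averaged 1 or more; Benjamini-Hochberg adjusted p-values under 0.05 passed. All 18 livers entered each fit. Genotype was tested alone, title style with genotype, and then their interaction. Correlations were Pearson and Spearman, on the same log2 scale, with two-sided permutation tests (100000 draws; within genotype and style for deviations), run in Python 3.11.15 with numpy 2.4.6, pandas 2.3.3 and scipy 1.17.1, and figures used matplotlib 3.10.9. Both scripts were tested on simulated data. The alternatives tried were a pseudocount of 1 or 0.01, a minimum FPKM of 0.1, of 5 or none, median-of-ratios and 75th percentile scaling, title style as a block, each style alone, each liver left out, and, added after the values were seen, WThfd134 and KOhfd53 left out with and without KOhfd51. The members and lists were chosen with earlier results of these data known, and 2 genes of the lists are not reported here. Named genes were the members, *Gpr180*, up to 5 genes per list and fit past the threshold, and the 5 genes most like *Dbp* and the 5 most like *Arntl*. Each liver is from 1 mouse, so p-values measure the spread between mice. The title styles are 2 unexplained groups, so the style p-values do not measure a spread between such groups. The genotype fit and the pooled correlations leave title style out, so their spread also holds differences between the styles.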

Additional observations from a re-analysis of the deposited data

Results flagged for a closer look

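In the *Gpr180*KO group, KOhfd51 stood far from the other 8 livers for *Per2* (0.851 FPKM, others 1.80 to 3.34), *Clock* (2.04, others 6.64 to 12.7) and *Rora* (0.374, others 7.98 to 11.9), and for the median deviation of its longest 20% of transcripts minus that of its shortest 20% (-1.51 log2 units, others -0.08 to 0.13). In the WT group, WThfd134 stood far from the others for *Bhlhe40* (20.2 FPKM, others 28.4 to 39.3). With 32 groups of values examined, chance alone would set about 1 in 20 of them apart. *Clock* and *Rora* were named after their values were seen.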

How the results depend on the processing

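The count of members that passed for the genotype was 0 under every alternative run, as was that for its interaction with title style, each liver left out included. For title style, 2 members passed with an FPKM minimum of 0.1, 0 with a minimum of 5, 2 without WThfd134 and KOhfd53, 6 without these and KOhfd51, and 0 to 2 when 1 liver was left out. The minimum also sets which genes are tested. *Npas2* and *Ciart* were in the fit at 0.1 but not at 1. *Per1* (mean 1.98 FPKM) and *Wee1* were not in the fit at 5, so their calls were not tested there. Over all genes, 2479 passed for title style, 2242 (20.7%) without WThfd134 and KOhfd53, 4403 (40.6%) without the 3 livers, and 1849 (without W317HFD) to 4542 (without KOhfd51) when 1 was left out. For the genotype 513 (4.73%) passed, and 132 (1.22%, without WThfd133) to 922 (8.51%, without WThfd157) when 1 was left out. The count was 1153 (10.6%) with title style as a block, 578 (5.33%) in style 1 alone and 0 in style 2 alone. It was 837 of 14016 (5.97%) with a minimum of 0.1 and 238 of 6742 (3.53%) with a minimum of 5. Under the 2 scalings 293 (2.70%) and 282 (2.60%) passed, and 424 (3.91%) did without the 3 livers. For the genotype, the other clock genes that passed numbered 2 with a minimum of 0.1, 0 under median-of-ratios and 75th percentile scaling and in style 2 alone, and 0 to 1 when 1 liver was left out. The rhythmic outputs numbered 5 with a minimum of 0.1, 1 with a minimum of 5, 6 with title style as a block, 0 in style 2 alone and 1 to 4 when 1 liver was left out. With the minimum of 5 the *Lpin1* call was lost (-0.72, adjusted p 0.0521). The systemic cue genes numbered 2 under median-of-ratios (both higher in *Gpr180*KO, with the 1 lower gene lost) and 0 under 75th percentile scaling, 3 with the block, 4 in style 1 alone, 0 in style 2 alone, 2 without the 3 livers and 1 to 2 when 1 was left out. In style 2 alone *Gpr180* differed by -1.94 (adjusted p 0.0654). The sign of small differences turned. For the genotype, *Nr1d1* was 0.078 and 0.047 under the 2 scalings, and in style 1 alone *Nr1d1* was 0.0052, *Arntl* -0.26, *Dbp* 0.012 and *Tef* 0.023; *Npas2* was 0.12 under median-of-ratios scaling, 0.026 with a pseudocount of 0.01 and 0.20 without the 3 livers. For title style, *Cry1* was 0.00056 under median-of-ratios scaling, and *Per2* was 0.066, 0.046, 0.015 and 0.20 and *Nr1d1* 0.059, 0.038, 0.13 and 0.16 under median-of-ratios scaling, 75th percentile scaling, without WThfd134 and KOhfd53 and without the 3 livers; the *Per1* interaction was 0.12 without the 3. With 1 liver left out, the ranges were -0.18 to 0.018 (*Nr1d1*) and -0.19 to 0.17 (*Npas2*) for the genotype, -0.12 to 0.038 (*Nr1d1*) and -0.16 to 0.092 (*Per2*) for title style, and -0.36 to 0.026 (*Nr1d1*) and -0.37 to 0.018 (*Nr1d2*) for the interaction. The cause was not tested. No paired analysis was possible because mouse numbers shared by both genotypes name different mice. Low levels limit the precision: the limits listed with each FPKM lay 17.3% to 44.6% from it for *Npas2* and 34.4% to 99.8% for *Ciart*.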

Other observations

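Genes outside the clock list followed its opposite ends. Among the 10835 genes tested, those most like *Arntl* over the 18 livers by Pearson r were *Chka* (0.935), *Clpx* (0.908), *Dtx4* (0.899), *Mreg* (0.880) and *Lman2l* (0.872). *Chka*, the choline kinase of phosphatidylcholine synthesis, ran from 7.07 FPKM in WThfd157 to 54.4 in KOhfd53, and *Clpx*, a subunit of a mitochondrial protease, from 42.1 in WThfd156 to 122 in KOhfd53. Those most like *Dbp* were *Lpcat3* (0.859), *0610012H03Rik* (0.852), *Bnip3* (0.835), *Hoga1* (0.803) and *Zfp523* (0.794). *Lpcat3*, which remodels phospholipids, ran from 40.4 FPKM in KOhfd53 to 83.6 in WThfd156, and *Hoga1*, an enzyme of hydroxyproline breakdown, from 50.5 in WThfd134 to 90.3 in WThfd157. The extremes of these genes fell in the livers at the ends of the members' balance, except the lowest *Bnip3*, which was in KO319HFD (74.2 FPKM). These r values were picked as the highest among all genes, so they are a description with no test.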
